A study of Mus musculus with 2 samples.

Results

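The keratins of the interfollicular epidermis were examined as 8 genes measured by 11 probes, out of 34820 gene names and 55676 probes tested on the arrays. They were chosen by name: Krt5, Krt14 and Krt15 of the basal layer, Krt1, Krt10, Krt2 and Krt77 of the suprabasal layers, and Krt80, a keratin of differentiating epithelia. The rule uses the gene name alone, and every probe carrying one of these names was kept. On both arrays, 9 of the 11 probes were well above background in red and in green alike. The exceptions were the 2 probes of Krt2. None of the member spots was saturated or flagged.

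The arrays asked what 12 h of SOX11 induction does to the transcripts of neonatal mouse epidermis. SOX11 is a DNA-binding protein of the SOXC group that embryonic epidermis makes. SOX11-induced pups carried both K14-rtTA and TRE-Sox11-FLAG, control pups carried K14-rtTA without the Sox11 transgene, all were FVB/N mice of postnatal day 4.5, and both genotypes received doxycycline (Dox) for 12 h. The activator rtTA is made under the keratin 14 promoter, so the transgene is switched on in keratin 14 positive cells and not in the tissue as a whole. Each of the 2 arrays held 1 SOX11-induced pup in Cy5 (red) and its control littermate in Cy3 (green), and an array is called a pair here. Per the study's methods the pups of a pair were gender matched, and the epidermis of dorsal skin was peeled off as a sheet after dispase. The methods also mention a colour swap, but the labels give the same dyes on both arrays, and across all probes the pairs correlated positively, with r = 0.53 between their log2 ratios. For any 1 probe, an effect of the dye and an effect of SOX11 therefore cannot be told apart.

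The share of spots well above background, control spots aside, was 37.5% and 38.7% in the control channel and 40.6% and 42.6% in the SOX11 channel. The keratinocyte markers Lor and Ivl, of the cornified envelope, were above background in both channels, as were all member genes but Krt2. Both Sox11 probes stayed below that level in every channel. Whether they match the transgene's transcript was not tested, so they do not check the labels.

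Keratins are the intermediate filament proteins of epithelia, and a filament needs a type I and a type II keratin that pair with each other. In the basal layer the type II keratin K5 pairs with the type I keratin K14, and K15 is a further type I keratin of basal cells and of the hair follicle bulge. Cells that leave the basal layer switch to K1, of type II, and K10, of type I, and K2 joins K10 in the upper layers. K77 is a type II keratin of suprabasal cells and sweat ducts. The change from Krt5 and Krt14 to Krt1 and Krt10 is the classical mark of the step from proliferating to differentiating keratinocytes.

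The probes that carry these measurements are oligonucleotides of 60 bases, and every member probe has an open reading frame across it. No annotation of the transcripts was used, and only the capitals in Krt15 and Krt10 place a probe within its transcript. Sequences of 6 of the probes are shown. All lie on the minus strand of the mouse build mm9 as the array files list them, with type II genes on chromosome 15 and type I genes on chromosome 11. Capitals in the Krt15 probe mark the stop codon that ends the coding sequence. Capitals in the Krt10 probe mark the codons of the conserved motif that closes the rod domain of keratins. The sequences of the other 4 probes carry no capitals.
Krt5 (A_66_P116076, chr15:101542056-101542115): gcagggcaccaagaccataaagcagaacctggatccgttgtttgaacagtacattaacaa
Krt14 (A_51_P506417, chr11:100064683-100065288): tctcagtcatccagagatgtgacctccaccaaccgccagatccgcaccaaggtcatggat
Krt15 (A_55_P2006261, chr11:99993331-99993390): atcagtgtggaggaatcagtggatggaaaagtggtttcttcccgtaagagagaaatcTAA
Krt10 (A_55_P2070009, chr11:99247846-99247905): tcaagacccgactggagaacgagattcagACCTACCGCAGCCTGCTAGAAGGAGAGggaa
Krt2 (A_55_P2148504, chr15:101642000-101642059): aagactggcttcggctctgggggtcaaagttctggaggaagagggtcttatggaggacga
Krt77 (A_55_P2177290, chr15:101691358-101691417): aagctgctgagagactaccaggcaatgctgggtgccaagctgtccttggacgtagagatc

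The listed span of the Krt14 probe is 606 bases for 60 bases of probe, so it joins separate stretches of the gene. The GC content of the 11 member probes ranged from 38.3% to 55.0%. The longest run of bases that a member probe shared with any probe of another gene name, on either strand, was 14 or 15 bases. No probe of another keratin shared 14 bases or more with any of them.

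Within the 2 pairs, the basal keratin Krt15 and the suprabasal keratin Krt77 were lower in SOX11-induced epidermis and passed the test, while none of the other members did. Krt15 was 2.04-fold lower and Krt77 was 1.75-fold lower. Krt1 and Krt10 lay above 0 in both pairs, with means between 0.58 and 0.66 on the log2 scale, and did not pass. Krt5 and Krt14 lay below 0 in both pairs after loess, also without passing, but above 0 with each array centred on its median in place of loess. At an adjusted p under 0.05, 2 of 11 member probes were lower, against 1.41% of all 55676 probes, and 0 were higher, against 2.99%. Among the 9 above background the counts were also 2 and 0, against 3.25% and 6.03% of the 19095 probes that met the same condition. At an unadjusted p under 0.05 in the limma fit, 8 member probes passed, of which 4 were lower, against 9.17% of all probes, and 4 were higher, against 11.9%. The lower were both Krt5 probes, Krt15 and Krt77. The higher were Krt1, both Krt10 probes and the Krt2 probe A_55_P2148504, whose control channel was not above background. Probes of 1 gene are not separate observations, and the unadjusted shares among probes above background were not counted. No member passed the study's own threshold of a log2 ratio past 1.5 with an adjusted p under 0.05, which 0.453% of all probes did. In RNA of whole epidermis, fewer cells of a type and less RNA per cell cannot be told apart.

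**Figure D1:**
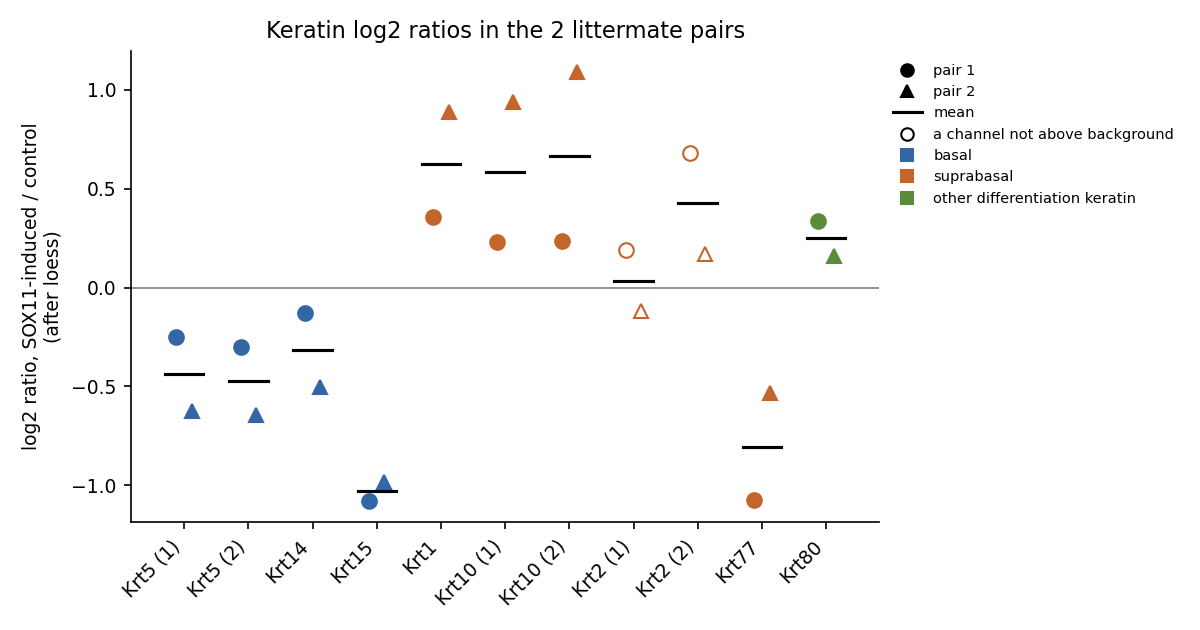
Log2 ratio of SOX11-induced over control after loess (vertical axis) for each of the 11 keratin probes (horizontal axis), with pair 1 as circles, pair 2 as triangles and the mean of the 2 pairs as a black line. Open symbols are the Krt2 probes, where a channel was not above background, and Krt15 is the only gene near -1 in both pairs. With median centring in place of loess the means of Krt5 and Krt14 change sign.

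Krt15, the type I keratin of basal cells and the follicle bulge, had scanner intensities of 23046 in the control and 24356 in the SOX11 channel of pair 1. In pair 2 these were 15897 and 20144. Before normalization the channels therefore overlapped, and the red channel was slightly brighter in both pairs. Red was brighter than green across the array, however, and the loess curve at the brightness of Krt15 stood at 1.16 in pair 1 and at 1.32 in pair 2 on the log2 scale. The ratio of Krt15 before loess was 0.08 and 0.34, well under the curve, and after loess it was -1.08 and -0.98. The mean was -1.03 ± 0.0664 (SD, n = 2), with an adjusted p of 0.00573 in limma. After scaling between arrays its log2 level was 15.20 and 14.48 in the control and 14.12 and 13.49 in the SOX11 channel, so the genotypes did not overlap. With 2 values per genotype this describes the values and is no test. The share of all probes without overlap was not counted, here or for the members below. Both channels of pair 2 were lower than those of pair 1, by 0.73 in the control and 0.63 in the SOX11 channel on the log2 scale, and the ratio was nearly the same in both pairs.

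Krt5, the type II partner of the basal layer, was read by 2 probes. The probe A_51_P186856 (chr15:101537514-101537573) had intensities of 89883 in the control and 180463 in the SOX11 channel of pair 1, and 85422 and 149508 in pair 2. Its log2 ratio after loess was -0.25 and -0.62, with a mean of -0.44 ± 0.264 (SD, n = 2) and an adjusted p of 0.165 in limma. The probe shown above, which is far dimmer, gave -0.30 and -0.65, a mean of -0.47 ± 0.246 (SD, n = 2) and an adjusted p of 0.133. Both probes thus gave nearly the same ratio in each pair, although they lie at different positions of the gene. The scaled log2 levels of the bright probe were 17.18 and 17.02 in the control and 16.93 and 16.39 in the SOX11 channel, without overlap, while those of the dim probe overlapped. After loess without scaling between arrays the dim probe did not overlap, with 11.83 and 11.69 in the control and 11.53 and 11.04 in the SOX11 channel.

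Krt14, the type I partner of Krt5 and the gene whose promoter drives rtTA in both genotypes, had intensities of 42281 and 89685 in pair 1 and 40216 and 74342 in pair 2. Its log2 ratio was -0.13 and -0.50, with a mean of -0.31 ± 0.265 (SD, n = 2). The adjusted p was 0.302 in limma and the 95% interval of the mean ran from -0.68 to 0.05. Its scaled levels overlapped between genotypes, with 16.07 and 15.82 in the control and 15.94 and 15.32 in the SOX11 channel. After loess without scaling between arrays they did not, with 15.97 and 15.99 in the control and 15.85 and 15.49 in the SOX11 channel. Krt5 minus Krt14 was -0.15 in pair 1 and -0.13 in pair 2, a difference of ratios within each array, so the partners differed by nearly the same amount in both pairs. With median centring the means of Krt5 were 0.43 and 0.18 and that of Krt14 was 0.51, the last with an adjusted p of 0.0338. That setting moved the median of all probes above background to 0.49 in pair 1 and 0.57 in pair 2, and relative to this shift the means were -0.10 and -0.35 for Krt5 and -0.02 for Krt14.

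**Figure D2:**
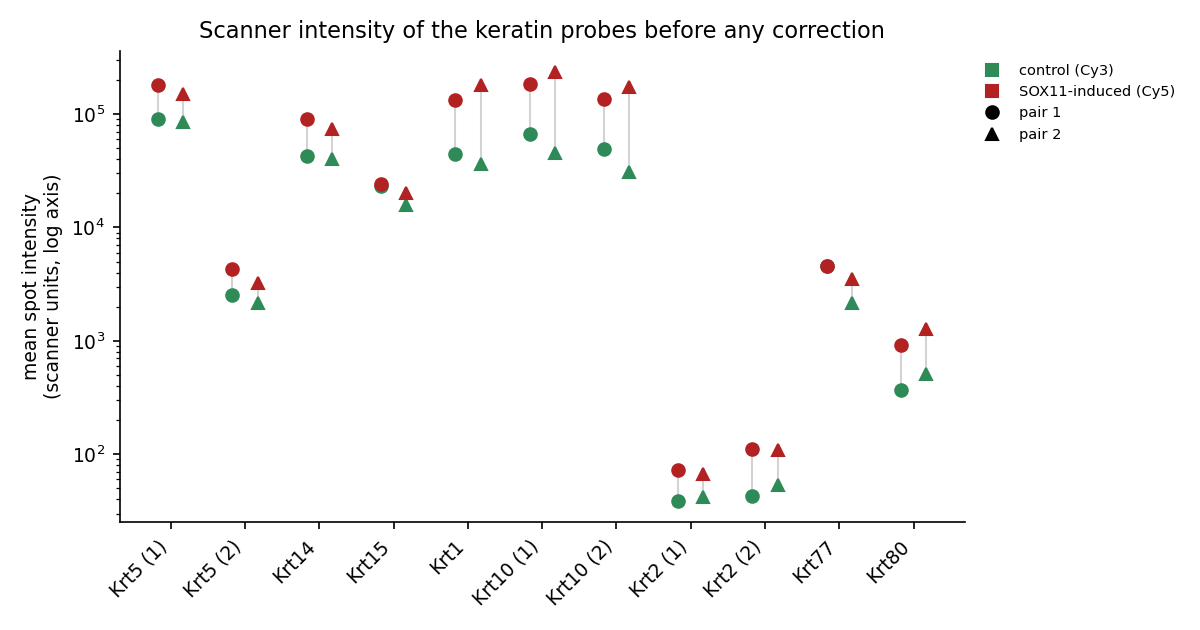
Mean spot intensity in scanner units on a log axis (vertical) for each keratin probe (horizontal), before any correction, with control in green, SOX11-induced in red, pair 1 as circles and pair 2 as triangles, joined by a grey line within an array. Red is the brighter channel for most probes, the gap of Krt15 is the smallest in pair 2 and that of Krt77 in pair 1, and the control points of Krt10 differ between pairs more than its SOX11 points. Levels of different probes are not comparable with each other.

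Krt1, the type II keratin of the spinous layer (probe A_51_P416669, chr15:101676107-101676166), had intensities of 44424 in the control and 133041 in the SOX11 channel of pair 1, and 36276 and 178250 in pair 2. Its log2 ratio after loess was 0.36 and 0.89. The mean was 0.62 ± 0.374 (SD, n = 2), with an adjusted p of 0.0784 in limma. The genotypes did not overlap in the scaled levels, which were 16.12 and 15.76 in the control and 16.48 and 16.65 in the SOX11 channel.

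Krt10, its type I partner, was read by the probe shown above and by A_66_P127224 (chr11:99246538-99246558, the part of that probe which the files place on the genome). The first had intensities of 66620 and 185542 in pair 1 and 45499 and 233613 in pair 2, and log2 ratios of 0.23 and 0.94. The second had intensities of 48783 and 134601 in pair 1 and 30495 and 171624 in pair 2, and log2 ratios of 0.24 and 1.09. Their means were 0.58 ± 0.498 and 0.66 ± 0.602 (SD, n = 2), with adjusted p of 0.119 and 0.105 in limma. The scaled levels of the first were 16.74 and 16.09 in the control and 16.97 and 17.03 in the SOX11 channel, without overlap, and the second did not overlap either.

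After scaling between arrays, the larger ratio of Krt1 and Krt10 in pair 2 lay in the control channel more than in the SOX11 channel. Without that scaling this held for both Krt10 probes but not for Krt1. The levels of Krt1 after loess were 16.05 and 15.85 in the control and 16.41 and 16.74 in the SOX11 channel. From pair 1 to pair 2 the scaled control level dropped by 0.36 for Krt1 and by 0.65 and 0.78 for the Krt10 probes. The SOX11 level differed by 0.17, 0.05 and 0.07 on the same log2 scale. For Krt5 and Krt14 it was the SOX11 channel that differed more, with falls of 0.54 and 0.74 for the Krt5 probes and 0.62 for Krt14, against 0.16, 0.39 and 0.25 in the control. Krt1 minus Krt10 was 0.12 in pair 1 and -0.13 in pair 2, less than the spread of either gene between pairs.

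Krt77, the further type II keratin of suprabasal cells, went the other way from Krt1 and Krt10. Its intensities were 4609 in the control and 4591 in the SOX11 channel of pair 1, and 2155 and 3482 in pair 2. The ratio before loess was -0.01 and 0.68 against a curve at 1.06 and 1.22, so that it lay under the curve in both pairs. After loess it was -1.08 and -0.54, with a mean of -0.81 ± 0.382 (SD, n = 2) and an adjusted p of 0.0337 in limma. Its scaled control levels, 12.82 and 11.55, overlapped with the SOX11 levels of 11.75 and 11.01, since both channels fell from pair 1 to pair 2, by 1.27 in the control and by 0.73 in the SOX11 channel. After loess without scaling between arrays the levels lay just apart, with 12.70 and 11.68 in the control and 11.62 and 11.14 in the SOX11 channel.

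Both probes that passed lost their call in 2 of the 8 processing alternatives that could change a mean or an adjusted p. Of these 8, median spot brightness and the series table hold nearly the same values. With the scanner software's own processed signals Krt15 had a mean of -0.98 and an adjusted p of 0.244, and Krt77 had -0.80 and 0.292, in a setting where 0 of all probes passed and 1 member probe had an unadjusted p under 0.05. With median centring the means were -0.27 and -0.14 with adjusted p of 0.216 and 0.573, and Krt77 was at 0.17 in pair 2. Relative to the shift of all bright probes under that setting, Krt15 stood at -0.80 and Krt77 at -0.67.

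Krt2, which pairs with K10 in the upper layers, was dim on these arrays. The probe A_51_P343474 (chr15:101641326-101641385) was not well above background in any channel, at 38.95 and 72.5 scanner units in pair 1 and 41.9 and 66.6 in pair 2, where local backgrounds of the member spots were 19 to 26 in green and 56 to 66 in red. The probe shown above was above background in the SOX11 channel of both pairs, at 112 and 109.6, and in the control channel of neither, at 42.5 and 53.6. Its log2 ratios were 0.68 and 0.17, with an adjusted p of 0.194 in limma. No direction was read for Krt2, and its difference from Krt10 was therefore not used.

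Krt80, a type II keratin of differentiating epithelia (chr15:101180014-101180073), had intensities of 365 in the control and 918 in the SOX11 channel of pair 1, and 506 and 1268 in pair 2. Its log2 ratio was 0.34 and 0.16, with a mean of 0.25 ± 0.123 (SD, n = 2) and an adjusted p of 0.385 in limma. The 95% interval of the mean ran from -0.09 to 0.59. Its scaled levels of 9.10 and 9.40 in the control and 9.43 and 9.57 in the SOX11 channel did not overlap but lay close together. After loess without scaling between arrays they overlapped, with 8.97 and 9.53 in the control and 9.31 and 9.70 in the SOX11 channel.

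**Figure D3:**
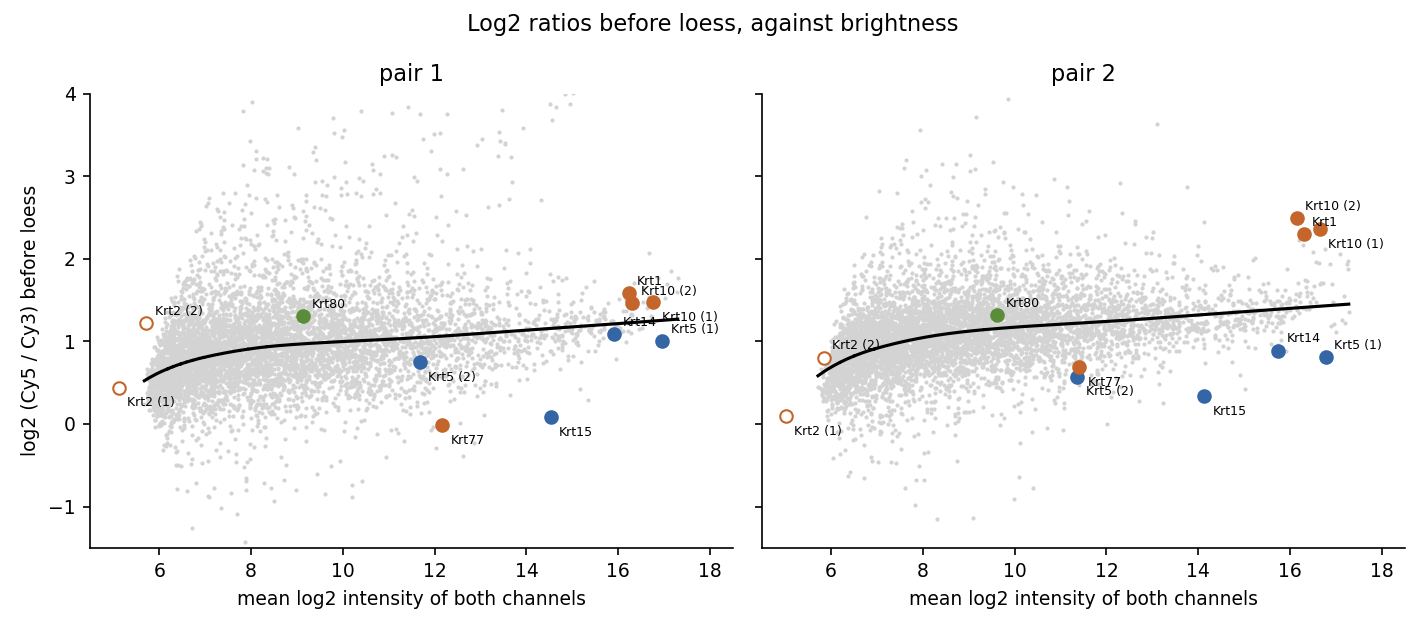
Log2 of Cy5 over Cy3 before loess (vertical) against the mean log2 intensity of both channels (horizontal) in each pair, with a sample of 6000 probes above background in grey, the loess curve in black, basal keratins in blue, suprabasal keratins in orange and Krt80 in green, and Krt2 open where a channel was not above background. The reported log2 ratio of a probe is its height over the curve, and the curve stands near 1.25 to 1.43 at the brightest Krt5 probe. Krt1 and Krt10 lie above the curve and Krt15 and Krt77 below it in both pairs.

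Because red exceeded green over most of the array, each member's value depends on the height of the curve at its brightness. The bright members sit where the array has few probes: between 199 and 760 probes lay within 1 log2 unit of brightness of the bright Krt5 probe, Krt14, Krt15, Krt1 and the Krt10 probes. Setting the weight of all keratin probes to 0 when the curve was drawn moved none of the members across the threshold.

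Taken by layer, the median log2 ratio of the basal genes was -0.27 in pair 1 and -0.63 in pair 2, and that of the suprabasal genes was 0.30 and 0.46. The suprabasal median includes Krt2, for which no direction was read. In pair 2 it lay midway between Krt2, at 0.03, and Krt1, at 0.89. Basal minus suprabasal, which a constant shift of an array does not move, was -0.57 and -1.09, with a mean of -0.83 ± 0.368 (SD, n = 2). The exact two-sided sign-flip test gave p = 0.5, the smallest that 2 pairs allow. Without Krt2, a choice made after seeing the data, the difference was -0.51 and -1.52, with a mean of -1.02. A correction that depends on brightness, as loess does, can move the difference. With Krt2 kept and median centring in place of loess, it was -0.27 and -0.80, with a mean of -0.54. The layers did not separate fully, since the suprabasal Krt77 lay with the basal genes. The median over the 11 member probes was 0.03, beside 0.01 over all probes and 0.02 over those above background.

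**Figure D4:**
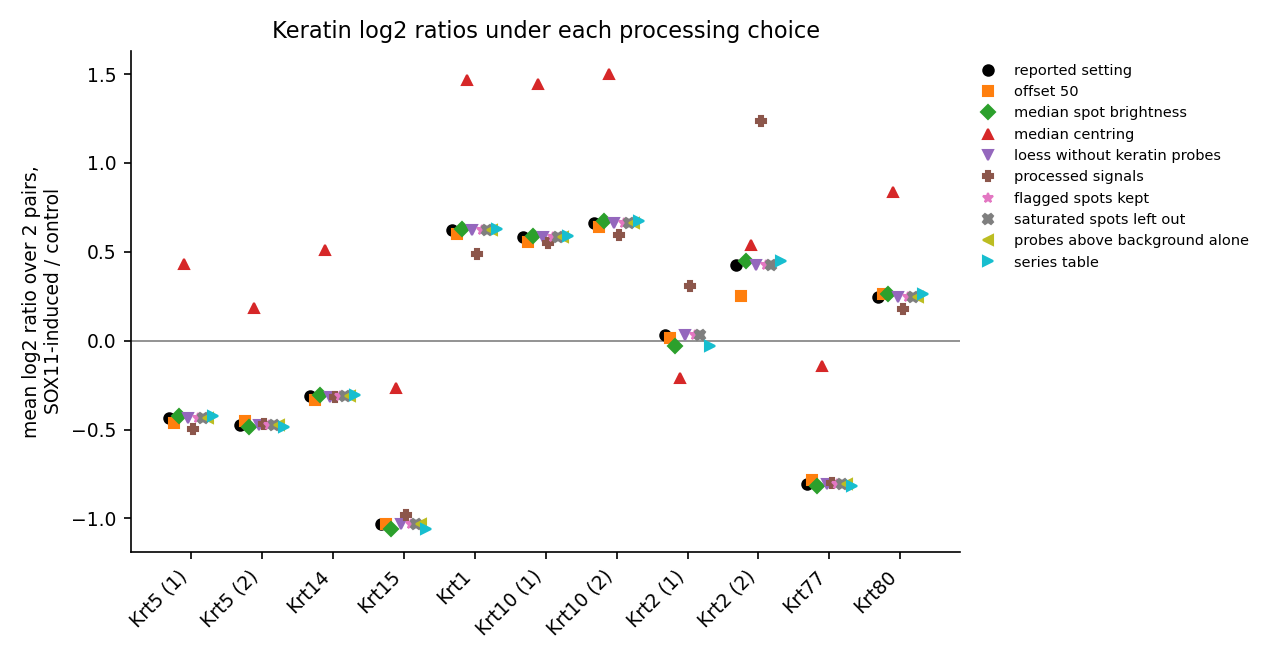
Mean log2 ratio over the 2 pairs (vertical) of each keratin probe (horizontal) under the reported setting (black circles) and 9 processing alternatives (other symbols, 8 for Krt2, which is left out where only probes above background are tested), of which leaving out saturated spots changed nothing, as no spot was saturated. Keeping flagged spots and testing only probes above background also left the plotted means unchanged. Median centring moves every member above background upward and takes Krt5 and Krt14 from below 0 to above 0, while Krt15 and Krt77 stay below 0 and Krt1, Krt10 and Krt80 above 0.

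Genes that act on these keratins were followed as a list of 16 transcription regulators of epidermal fate, of which 15 were above background. At an adjusted p under 0.05 in limma, 1 was lower and 0 were higher, against 1.41% and 2.99% of all probes and 3.25% and 6.03% of those above background. At an unadjusted p under 0.05 in limma there were 5 lower and 2 higher, against 9.17% and 11.9% of all probes, dim ones included. The median of the list was -0.07 on the log2 scale. The gene that passed was Tfap2c, an AP-2 factor with binding sites in keratin promoters, at -0.65 in pair 1 and -0.60 in pair 2, a mean log2 ratio of -0.63 ± 0.0344 (SD, n = 2) and an adjusted p of 0.0492. It lay just under the threshold, and no regulator was called lower with median spot brightness, median centring, processed signals, flagged spots kept or the series table. Of 11 measured genes whose proteins bind or anchor keratin filaments, such as desmosomal plakins, 0 passed in either direction in limma. At an unadjusted p under 0.05 in limma, 2 of these genes were lower and 1 was higher, against the same 9.17% and 11.9% of all probes. Their median was -0.14.

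The 9 member probes above background, 2 each for Krt5 and Krt10, did not change sign between the pairs. Their median SD between pairs was 0.265, beside 0.126 over all probes above background. The share of all probes above background that changed sign was not counted. The other keratin genes, mostly of the hair follicle and of simple epithelia, differed more between the pairs. Of 37 above background, 25 had opposite signs in the pairs and 34 were higher in pair 1 than in pair 2, with a median SD of 1.22 and medians of 1.67 and -0.15. Of these, 0 were lower and 2 were higher at an adjusted p under 0.05 in limma, near the 6.03% of all probes above background that were higher. These were Krt16, at 0.87 and 0.65 with an adjusted p of 0.0267, and Krt6a, at 2.23 and 0.53 with an adjusted p of 0.0421, which are keratins of the follicle sheath and of activated epidermis.

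Markers of other cells in the sheet also differed between the pairs. Of 15 hair follicle markers, 14 were above background, and their median log2 ratio was 1.62 in pair 1 and -0.27 in pair 2. Their summed log2 level was 16.45 and 19.02 in the control and 18.35 and 18.69 in the SOX11 channel, so the control of pair 1 stood apart. The keratins on this list, Krt71, Krt25, Krt27, Krt31, Krt33a, Krt35, Krt85 and Krt86, were already counted among the other keratin genes. For them the list is not a separate observation. The other markers above background, Lhx2, Msx2, Foxn1, Hoxc13, Dlx3 and Tchh, lay above 0 in pair 1 and below 0 in pair 2. Of 9 measured leukocyte markers, 0 passed, and their median log2 ratio was -0.33 in pair 1 and -0.15 in pair 2. The summed level of the leukocyte markers was 14.91 and 13.34 in the control and 14.59 and 12.97 in the SOX11 channel. Of 10 fibroblast markers, 6 were above background, and Lum, Pdgfra, Twist2 and Dpt were not in any channel. The gene Dcn, named after its value was seen because it alone of these lists passed, had a mean log2 ratio of -0.79 ± 0.244 (SD, n = 2) and an adjusted p of 0.0260 in limma. At an adjusted p under 0.05, 1.41% of all probes were lower. The other fibroblast markers above background went both ways. Col1a1, Col1a2, Col3a1 and Vim had mean log2 ratios of 0.37, 0.49, 0.37 and 0.10, and Postn had -0.83. The median of the fibroblast list was 0.13. The summed level of the fibroblast markers was 11.74 and 11.29 in the control and 11.50 and 11.49 in the SOX11 channel. All 8 melanocyte markers were above background, with summed levels of 13.36 and 13.17 in the control and 13.80 and 13.18 in the SOX11 channel. The part of these cells in the keratin values was not tested.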

How the data were processed

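RNA of SOX11-induced (Cy5) and control (Cy3) epidermis was compared on 2 two-colour arrays, 1 littermate pair each. The scanner files that the authors deposited hold the intensity of each spot and its background in both channels, without normalization, from Agilent Feature Extraction 10.7.3.1 (probe positions on mm9). Spots flagged as outliers (194 and 186 on the arrays) and control spots were left out after normalization. Mean spot intensity was background corrected (normexp, offset 16) and normalized by loess within each array in limma 3.58.1 (R 4.3.3). An intercept was fitted to the log2 ratios of 55676 probes with moderated variances, and every adjusted p-value is from this limma fit with Benjamini-Hochberg adjustment over all probes.

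The deposited series table holds the authors' log2 ratios. Median spot intensity with the same steps rebuilt it (correlation 1 on both arrays, largest differences 5.48e-05 and 0.000462), so its scale, centring and direction are known, and its column medians were 0.00941 and 0.00402. The ComBat step named in the study's methods was not needed for that match.

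The members, gene lists and alternatives were chosen with earlier results of these data known. All 8 member genes and all their probes are named, and of the other lists the genes with an adjusted p under 0.05. A gene with several probes was taken at the median of its probes in the layer and partner differences and at its brightest probe in the lists. Each channel's log2 level is the value after loess and Aquantile scaling between arrays. The prior of the variances had 8.34 degrees of freedom and an SD of 0.223 against 1 residual degree of freedom. On simulated data the fit recovered the set changes, but it also passed more unchanged probes than its nominal share. The set changes were of 1.5 or more on the log2 scale, larger than the mean of any member. Whether the fit passes changes of the members' size was not tested. Known shifts put into the red channel of real bright spots checked the log2 ratios and not the calls. The alternatives changed the offset, spot summary, normalization, probes behind the curve, signals, flags and filter. Arrays give no read depth, and their number limits the precision.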

Additional observations from a re-analysis of the deposited data

How the results depend on the processing

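Means of Krt15 and Krt77 stayed negative, and those of Krt1, Krt10 and Krt80 positive, under all 8 alternatives that could change a mean or an adjusted p. Keeping flagged spots and testing only probes above background left these means unchanged, so those alternatives could not turn a sign. Median spot brightness and the series table hold nearly the same values, so they are not separate checks. No spot was saturated, so leaving saturated spots out changed nothing. With an offset of 50, which called 2.79% of all probes lower and 5.12% higher, 4 member probes were lower and 1 higher at an adjusted p under 0.05 (both Krt5 probes, adjusted p 0.0405 and 0.0413, and Krt1, 0.0355, were added), 4 regulators were lower and 2 higher, 1 keratin-binding gene was lower and 1 higher, and Krt5 minus Krt14 was -0.12. With median centring, which called 11.4% of all probes lower and 21.8% higher, 0 member probes were lower and 6 higher, 1 passed the study's threshold (a Krt10 probe), 0 regulators were lower and 8 higher, 9 keratin-binding genes were higher and Krt5 minus Krt14 was -0.20. Krt2 minus Krt10, which was not used because Krt2 was dim, went from -0.39 in the reported setting to -1.31 with median centring. It was 0.20 with processed signals. With median centring the sign turned for Krt5 (0.43 and 0.18), Krt14 (0.51) and the Krt2 probe A_51_P343474 (-0.21). With processed signals 0 members and 0 regulators were lower and Krt5 minus Krt14 was -0.17. No regulator (0) was lower with median spot brightness, flagged spots kept or the series table, and 2 were when probes above background alone were tested. Krt5 minus Krt14 was -0.15 in the series table, and the Krt2 probe A_51_P343474 was at -0.0287 there and with median spot brightness. Leaving keratin probes out of the curve moved no member across the threshold. The cause of these changes was not tested.

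The reported fit is itself paired, since each ratio is taken between littermates on 1 array. Leaving out 1 pair leaves the value of the other with no test, and basal minus suprabasal then ranged from -1.09 to -0.57. With 2 pairs, calls rest on the variance shared over all probes. Signal over background limits Krt2 alone among the members.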
